A study of Mus musculus with 36 samples.

Results

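The 8 genes described here encode very large enzymes that attach ubiquitin to other proteins: Herc1, Herc2, Huwe1, Ubr3, Ubr4, Mycbp2, Birc6 and Rnf213. They were found by gene name among the 16614 genes of the count table, of which 16561 are protein-coding. They were chosen on values of these same libraries: their levels, their counts in the pellet over fraction 5/6, and the peaks on their transcripts. Those values, and the comparisons of RPFs with RNA-seq and between preparations that are built from the same levels, are therefore given as a description, without a test. Differences between genotypes, which the choice did not name but which rest on the same libraries, were tested, and none of the 8 genes was called. At most 0.0736% of all genes were called in any of these comparisons, so this count says little about the 8 genes.

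Ribosomes were isolated from frozen whole brains of mice 5 days old, with 10 brains pooled for a preparation, and were spun through sucrose gradients. Ribosome-protected fragments (RPFs), the stretches of mRNA that a ribosome shields from nuclease, were sequenced from the pellet, which holds neuronal RNA granules, and from fraction 5/6, which holds ribosome clusters that do not reach the pellet. RNA of the whole brain homogenate was sequenced beside them. The mice were WT (C57BL/6) or carried a knockout of Fmr1 (FMR1 KO), the gene for the RNA binding protein FMRP that is lost in fragile X syndrome. A standard preparation used 10 mM MgCl2 and more nuclease, and a low nuclease preparation used 2.5 mM MgCl2. The 2 genotypes, 2 preparations and 3 kinds of library made 12 groups of 3 libraries, 36 in all. The 3 RPF libraries of a group were pooled after linker ligation and shared the later steps, so group and pool cannot be told apart, and p-values measure the spread between these libraries. In whole brain, fewer cells of a type and less RNA per cell cannot be told apart.

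Ubiquitin is activated by an E1 enzyme, passed to an E2 enzyme and placed on a substrate by an E3 ligase, which picks the substrate. HECT ligases first take ubiquitin onto their own cysteine, whereas RING ligases bring the loaded E2 and the substrate together. Several of the giant ligases are known for roles in neurons, in axon growth and in neurodevelopmental disease. As background on the assay, RPFs count ribosomes, so a long coding sequence can carry more RPFs per mRNA than a short one.

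Herc1 (ENSMUSG00000038664, chr9:66350450-66508775, plus strand of GRCm38) and Herc2 (ENSMUSG00000030451, chr7:56050196-56231800, plus strand) are HECT ligases with RCC1-like repeats, and Herc2 is known for its part in the response to DNA damage. Huwe1 (ENSMUSG00000025261, chrX:151800807-151935417, plus strand) is a HECT ligase of p53, Mcl1 and N-Myc. Ubr3 (ENSMUSG00000044308, chr2:69897246-70024013, plus strand) and Ubr4 (ENSMUSG00000066036, chr4:139352609-139489588, plus strand) belong to the UBR box family, and Ubr4 recognises the destabilising first residues of proteins. Mycbp2 (ENSMUSG00000033004, chr14:103113411-103346814, minus strand) limits axon growth with the F-box protein Fbxo45. Birc6 (ENSMUSG00000024073, chr17:74528295-74703356, plus strand) is an inhibitor of apoptosis that carries an E2 domain of its own. Rnf213 (ENSMUSG00000070327, chr11:119393100-119487418, plus strand) joins a RING domain to an ATPase. Ubr3 was the shortest, with 1892 codons over 39 exons, and Ubr4 the longest, with 5180 codons over 106 exons. The other 6 had 4377 codons (Huwe1) to 5152 codons (Rnf213). Ubr4 overlaps Emc1 on the same strand (chr4:139352587-139378730), so reads of the shared stretch cannot be assigned by position alone. Genes on the opposite strand overlap Birc6, Herc1, Herc2, Rnf213 and Ubr4, among them Fbxl22 at the 3′ end of Herc1, and Huwe1 hosts 3 miRNAs.

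Peaks, places on a transcript where RPFs pile up, were listed by the authors for the standard RPF libraries only. The sequences below are some of the 15 positions where peaks of at least 4 of the 6 pellet libraries fell within 6 nt. For each transcript the position in most pellet libraries is shown, ties set by summed height, and for Huwe1 and Ubr3 also the next. Each is 30 nt of coding sequence in frame, 5′ to 3′ on the sense strand, from GENCODE M21 transcripts on GRCm38, and capitals mark in-frame aspartate and glutamate codons, which start with GA. The position can be off by 1 nt, since the base from which the peak coordinates are counted was not stated. They lie at chr14:103297291-103297320 (Mycbp2, codon 354, exon 6), chr7:56206588-56206617 (Herc2, codon 3929, exon 77), chrX:151918496-151918525 and chrX:151896610-151896639 (Huwe1, codons 3207 and 1982, exons 66 and 44), chr2:69973389-69973418 and chr2:69956049-69956078 (Ubr3, codons 1112 and 840, exons 23 and 18), and chr4:139410410-139410439 (Ubr4, codon 1061, exon 24).
Mycbp2 codon 354: ttaatgcacaagtggccattaaaaGAAgta
Herc2 codon 3929: agcatctttaaaagaGAGcaaGATGAGcaa
Huwe1 codon 3207: actagccgtctacaccgagtactgagaaat
Huwe1 codon 1982: cagctcctgcaaGACatgggtGACGATgta
Ubr3 codon 1112: cctccatggcttGATGACataGAAgtttta
Ubr3 codon 840: agggctcccatttttGAAcctggaggctct
Ubr4 codon 1061: caccttatcaaacaaggcatgaagcccGAG

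Levels are given as CPM, the count of a gene scaled to a common library total, of the counts without Cdk8, a gene that took 36.7% to 63.4% of the counts of the standard RPF libraries. Without it, the standard RPF libraries held 4284209 to 21274803 counts, the low nuclease RPF libraries 22378936 to 60377525 and the standard RNA-seq libraries 112240104 to 147207607. Fmr1 itself had 60.6 to 71.9 CPM in standard WT RNA-seq and 16.4 to 18.1 in FMR1 KO, and 64.6 to 67.8 against 4.79 to 4.93 in the pellets. The library labelled WT fraction 5/6 replicate 3 of the standard preparation stood apart: its Fmr1 level was 3.17 CPM against 100.1 and 68.6 in replicates 1 and 2, and 4.79 to 10.7 in the FMR1 KO standard RPF libraries. Its counts were closest to those of FMR1 KO pellet replicate 3, with a median chi-square per gene of 1.26 against 19.3 and 22.3 to its own group. Values of the members that rest on it are given with and without it. FMR1 KO pellet replicate 2 of the standard preparation also differed from its group, though its Fmr1 level was 4.79 CPM. Its median chi-square per gene was 25.0 and 34.7 to the other FMR1 KO pellets, and it was closest to WT fraction 5/6 replicate 2, at 4.41. That pellet library was kept, and the cause was not tested. In the low nuclease RNA-seq, 3 of 6 libraries had 81.5% to 85.0% of their counts on 10 genes, so these libraries entered no comparison. Neuronal markers (5 of 5 measured) summed to 5710 to 8740 CPM in standard pellets, 5756 to 12470 in fraction 5/6 and 7014 to 8158 in RNA-seq, and astrocyte markers (4 of 4) to 336 to 525, 234 to 506 and 326 to 524. Oligodendrocyte lineage markers (5 of 5) summed to 80.9 to 149, 92.0 to 168 and 437 to 806 CPM, microglial markers (4 of 4) to 76.8 to 115, 58.1 to 135 and 160 to 179, and endothelial markers (4 of 4) to 2.91 to 8.46, 3.27 to 5.72 and 8.10 to 12.9. Red blood cell globins (4 of 4) summed to 3.27 to 14.2, 3.52 to 12.8 and 225 to 523 CPM, and 2 of 3 liver genes to 20.9 to 51.7, 18.5 to 101.1 and 23.2 to 100.4. The oligodendrocyte, microglial and globin sums were below RNA-seq in every standard RPF library, and their part in the comparisons over RNA-seq was not tested.

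In the WT brain at this age, 7 of the 8 mRNAs lay between 15.3 and 29.3 CPM per kb and Rnf213 was far lower. In standard WT RNA-seq, divided by transcript length, Huwe1 was highest with 29.3 ± 3.56 CPM per kb (SD, n = 3). Ubr4 followed with 21.5 ± 2.74, Mycbp2 with 19.9 ± 1.44, Herc2 with 19.1 ± 2.27, Ubr3 with 18.7 ± 2.62, Birc6 with 18.3 ± 2.14 and Herc1 with 15.3 ± 1.70. From Ubr4 to Birc6 the neighbours in this order differed by less than the larger of their SDs, while Huwe1 stood above Ubr4 by more than either SD. Rnf213 came last with 0.882 ± 0.0821 CPM per kb. In WT standard pellets, divided by coding length, Ubr3 had 46.3 ± 3.34 RPF CPM per kb, Herc2 39.4 ± 3.85, Huwe1 38.6 ± 1.63, Mycbp2 37.7 ± 4.87, Birc6 37.6 ± 0.917, Herc1 33.3 ± 1.95 and Rnf213 1.32 ± 0.137. Ubr4 averaged 118 ± 99 there, since 1 library was far above the others. Herc2, Huwe1, Mycbp2 and Birc6 were neighbours that differed by less than the larger of their SDs.

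Herc2 showed the pattern that most members shared. Its level was 567, 517 and 629 CPM in the 3 WT standard pellets, 39.2 and 35.2 CPM in fraction 5/6 replicates 1 and 2, and 555 CPM in the library labelled WT fraction 5/6 replicate 3. In FMR1 KO it was 603, 316 and 574 CPM in the pellet and 37.1, 38.9 and 50.4 in fraction 5/6. RNA-seq of Herc2 lay between the RPF fractions, at 253, 301 and 321 CPM in WT and 285, 233 and 289 in FMR1 KO. With the library labelled WT fraction 5/6 replicate 3 set aside, no pellet library of Herc2 overlapped a fraction 5/6 library in either genotype. With low nuclease, the pellet had 387, 368 and 407 CPM in WT and 408, 321 and 338 in FMR1 KO. Low nuclease fraction 5/6 had 45.3, 63.2 and 65.2 CPM in WT and 63.4, 68.6 and 66.0 in FMR1 KO, again without overlap.

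Mycbp2 had 528, 472 and 610 CPM in WT standard pellets, 42.6, 32.4 and 532 in WT fraction 5/6, and 280, 324 and 307 in WT RNA-seq. In FMR1 KO it had 617, 301 and 574 CPM in the pellet, 49.9, 43.8 and 65.6 in fraction 5/6, and 313, 258 and 319 in RNA-seq. As with Herc2, the lowest pellet was FMR1 KO replicate 2, at about the level of the RNA-seq, and it was still above every FMR1 KO fraction 5/6 library. Herc1 had 475, 465 and 518 CPM in WT standard pellets, 40.4, 36.6 and 492 in WT fraction 5/6, and 203, 243 and 251 in WT RNA-seq. In FMR1 KO, Herc1 had 579, 287 and 519 CPM in the pellet and 44.2, 50.6 and 74.9 in fraction 5/6. For both genes the library labelled WT fraction 5/6 replicate 3 sat among the pellets.

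Birc6 had 541, 538 and 562 CPM in WT standard pellets and 64.6, 55.1 and 542 in WT fraction 5/6, and 592, 295 and 547 against 68.1, 70.0 and 104 in FMR1 KO. Huwe1, the most abundant mRNA of the set per kb, had 502, 488 and 530 CPM in WT standard pellets and 97.5, 94.1 and 540 in WT fraction 5/6, and 608, 308 and 562 against 107, 135 and 186 in FMR1 KO. Its fraction 5/6 level was thus above that of Herc1, Herc2, Mycbp2 and Birc6 in each FMR1 KO library. Ubr3, the shortest, had 254, 250 and 284 CPM in WT standard pellets and 88.2, 72.8 and 252 in WT fraction 5/6, and 258, 160 and 275 against 72.4, 106 and 127 in FMR1 KO. Rnf213 had 18.1, 21.2 and 22.1 CPM in WT standard pellets and 2.95, 2.16 and 19.9 in WT fraction 5/6, and 25.7, 14.4 and 22.3 against 2.89, 2.43 and 3.50 in FMR1 KO. These 4 genes kept the order pellet above fraction 5/6 in every FMR1 KO library, as did 5.24% of all genes, and the members were chosen on this ratio. The pellet of FMR1 KO replicate 2 was the lowest pellet each time.

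Ubr4 did not follow this pattern in the standard preparation. Its standard pellets had 3578, 1216 and 691 CPM in WT and 1845, 1632 and 1244 in FMR1 KO, and fraction 5/6 had 2344, 674 and 1687 CPM in WT and 2192, 186 and 102 in FMR1 KO. The pellet and fraction 5/6 overlapped in both genotypes. With low nuclease they did not: Ubr4 had 495, 520 and 507 CPM in WT pellets against 86.9, 99.8 and 81.6 in fraction 5/6, and 524, 442 and 440 in FMR1 KO pellets against 85.9, 116 and 91.6. In standard RPF libraries with high Ubr4 the overlapping gene Emc1 could also be high: WT pellet replicate 1 had 76127 Ubr4 and 56962 Emc1 counts, WT fraction 5/6 replicate 1 had 38950 and 38267, and FMR1 KO fraction 5/6 replicate 1 had 21245 and 8090. Emc1 had 99 to 581 counts in the other standard RPF libraries. Several of those had high Ubr4 as well: 28445, 20460 and 15536 counts in the FMR1 KO pellets, 14869 in WT pellet replicate 2, and 20738 in the library labelled WT fraction 5/6 replicate 3. Whether the shared stretch accounts for the Ubr4 values was not tested, and Ubr4 is given apart from the other members where it differs.

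**Figure D1:**
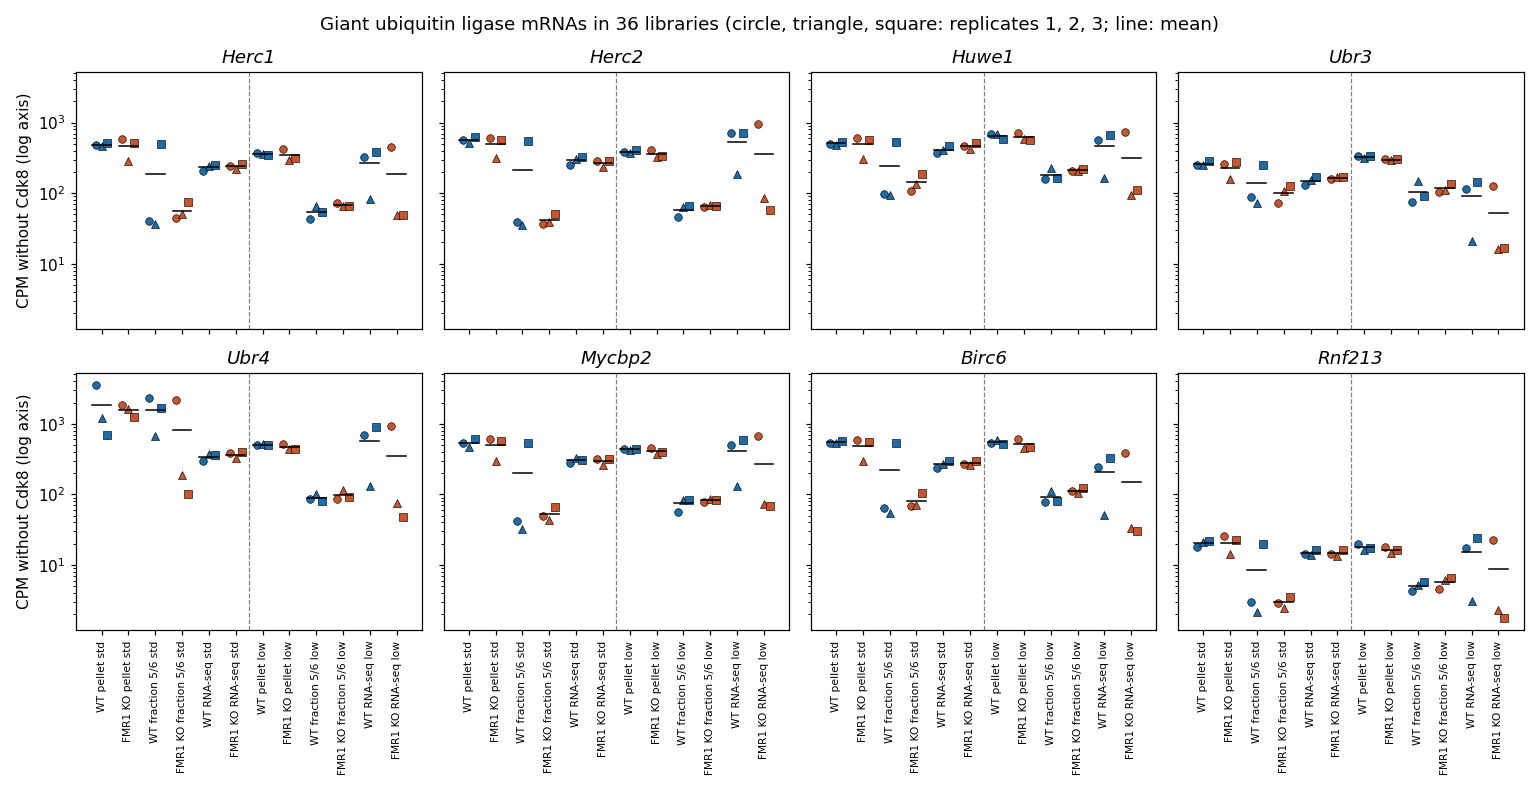
Level of each of the 8 genes (one panel each, CPM without Cdk8, log axis) in the libraries of every group, with symbols for libraries, a line for each group mean, blue for WT and orange for FMR1 KO, standard groups left of the dashed line and low nuclease groups right of it. The library labelled WT fraction 5/6 replicate 3 sits with the pellets for 7 genes, and Ubr4 spreads from 102 to 3578 CPM over the standard RPF libraries.

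Summed over the 7 genes without Ubr4, the ligases had 2751 to 3156 CPM in WT standard pellets, 375 and 328 CPM in WT fraction 5/6 replicates 1 and 2, and 2933 CPM in the library labelled replicate 3. In FMR1 KO the sum was 3284, 1682 and 3074 CPM in the pellets and 382 to 612 in fraction 5/6. Low nuclease pellets had 2338 to 2917 CPM and low nuclease fraction 5/6 had 461 to 708 over both genotypes. WT RNA-seq held 1480 to 1830 CPM, between the pellets and fraction 5/6 replicates 1 and 2. FMR1 KO RNA-seq held 1576 to 1866 CPM, above fraction 5/6 but overlapping the pellets through FMR1 KO pellet replicate 2. In each genotype and preparation the pellets were above fraction 5/6, apart from the library labelled WT fraction 5/6 replicate 3.

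As a ratio of mean CPM, the pellet over fraction 5/6 in WT standard libraries without that library was 15.4-fold for Herc2, 14.3-fold for Mycbp2, 12.6-fold for Herc1, 9.14-fold for Birc6, 8.02-fold for Rnf213, 5.29-fold for Huwe1, 3.26-fold for Ubr3 and 1.21-fold for Ubr4. With it, the ratios fell to between 1.17 (Ubr4) and 2.72 (Herc2). In FMR1 KO they were 11.8 for Herc2, 9.37 for Mycbp2, 8.17 for Herc1, 7.07 for Rnf213, 5.92 for Birc6, 3.46 for Huwe1, 2.27 for Ubr3 and 1.90 for Ubr4. With low nuclease they ran from 3.14 (Ubr3) to 6.69 (Herc2) in WT and from 2.55 (Ubr3) to 5.39 (Herc2) in FMR1 KO. Herc2 had the highest and Ubr3 the lowest ratio in each set, leaving out Ubr4 in the standard preparation. Every pellet library was above every fraction 5/6 library for 8 of 8 genes in both low nuclease genotypes, where this held for 17.8% of all genes tested in WT and 11.4% in FMR1 KO. In FMR1 KO standard libraries it held for 7 of 8 (5.24% of all genes), Ubr4 being the exception, and in WT for 0 of 8 (2.22%), or 7 of 8 against fraction 5/6 replicates 1 and 2 alone (21.8%). Since the members were chosen on these ratios, the counts describe the choice.

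On edgeR's log2 scale, whose 0 is near the median of all genes, the pellet over fraction 5/6 of Herc2 in FMR1 KO standard libraries was 3.88 (SE 0.20, n = 3 and 3). Mycbp2 had 3.54 (SE 0.22), Herc1 3.37 (SE 0.20), Rnf213 3.14 (SE 0.19), Birc6 2.90 (SE 0.19), Huwe1 2.13 (SE 0.19), Ubr3 1.52 (SE 0.16) and Ubr4 1.07 (SE 1.19). The Ubr4 value rested on FMR1 KO fraction 5/6 replicate 1, without which it was 3.84 (SE 0.63), and in WT Ubr4 ranged from -0.66 to 0.69 when 1 library was left out. Over the 8 genes the median was 3.02 in FMR1 KO, against 1.39 in WT with all libraries and 3.04 in WT without the library labelled fraction 5/6 replicate 3. With low nuclease the median was 2.64 in WT and 2.42 in FMR1 KO, and Ubr4, at 2.62 (SE 0.16) in WT and 2.46 in FMR1 KO, lay within the range of the others.

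**Figure D2:**
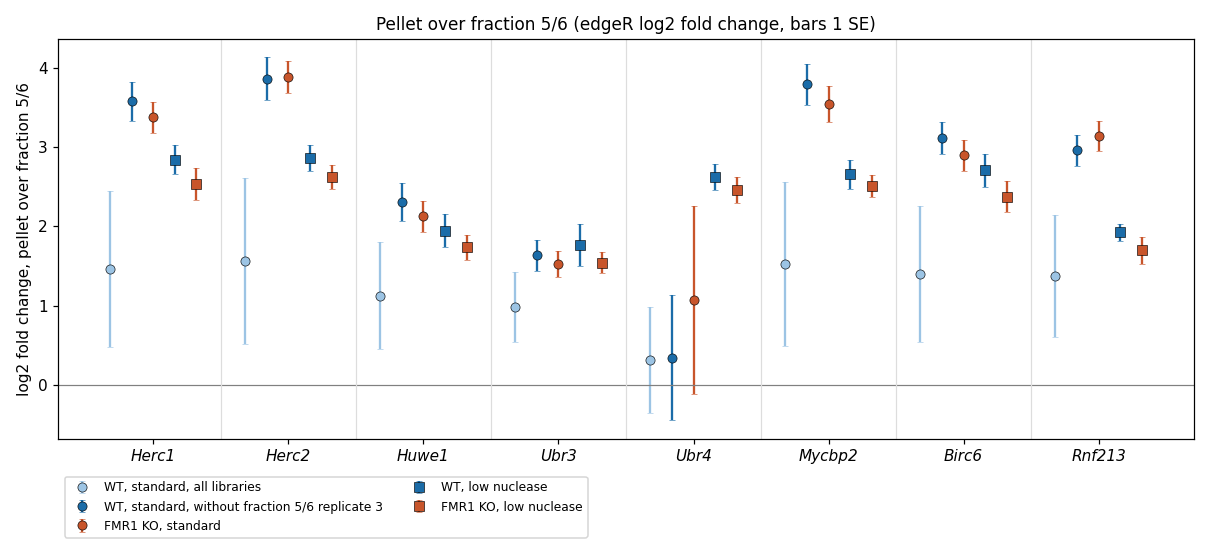
Pellet over fraction 5/6 of each of the 8 genes on edgeR's log2 scale, with SE as bars, by genotype and preparation, and for WT standard with and without the library labelled fraction 5/6 replicate 3. Leaving that library out moves the median of the 8 genes from 1.39 to 3.04, close to the FMR1 KO median of 3.02.

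Other genes with long coding sequences also had positive values. In FMR1 KO standard libraries the median pellet over fraction 5/6 was 1.31 (log2) over 475 other genes whose coding sequence was at least as long as that of Ubr3, 5.676 kb, and 1.44 over 177 genes of 8 kb and longer, with a 90th percentile of 2.70. Herc1, Herc2, Mycbp2, Birc6 and Rnf213 lay above that percentile and Huwe1 below it, while Ubr4 lay below it with all libraries and above it without FMR1 KO fraction 5/6 replicate 1. With low nuclease, the genes of 8 kb and longer had a median of 1.07 in WT and a 90th percentile of 2.21, and Herc1, Herc2, Ubr4, Mycbp2 and Birc6 were above it. In that WT set the medians by coding length rose from -0.29 under 1 kb to -0.03 at 1 to 2 kb, 0.29 at 2 to 4 kb and 0.71 at 4 to 8 kb. The 11 VPS13 and BEACH domain genes, giants without ligase activity, had medians of 1.94 in WT with low nuclease and 2.18 (standard) and 1.83 (low nuclease) in FMR1 KO. The list of other ubiquitin enzymes and partners (38 or 39 measured of 40) had medians of 0.23 in WT with low nuclease and 0.31 and 0.23 in FMR1 KO. The medians of the giant ligases, 2.64 in WT with low nuclease and 3.02 and 2.42 in FMR1 KO, were above those of each of these lists. In WT standard libraries their median was 1.39, against 1.27 for the VPS13 and BEACH domain genes. Without the library labelled fraction 5/6 replicate 3 it was 3.04 against 2.45. The VPS13 and BEACH domain genes reached 3.08 in WT with low nuclease, above the highest ligase at 2.86. The members were chosen on this ratio, so these medians describe the choice.

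**Figure D3:**
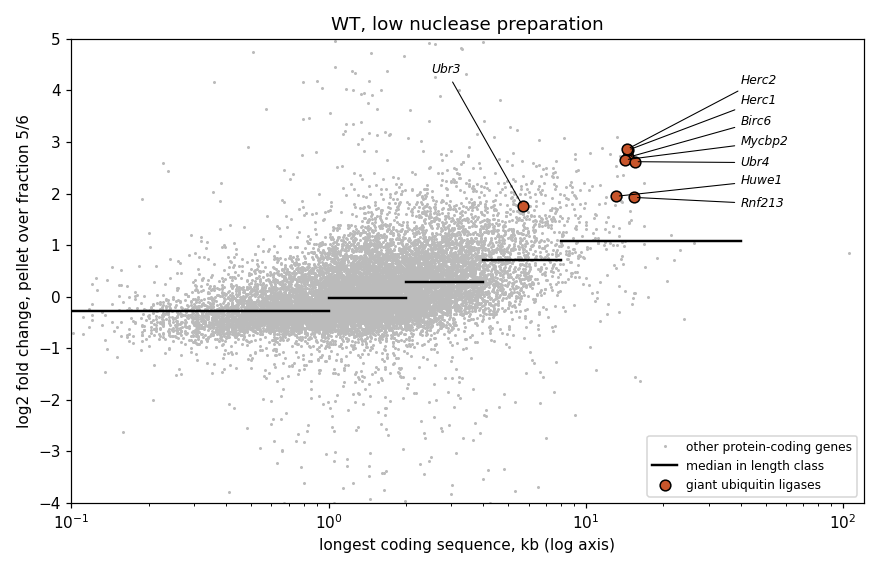
Pellet over fraction 5/6 (log2, edgeR, WT low nuclease) against coding length in kb on a log axis for all genes tested (grey points, with 87 outside the axis) and the 8 giant ligases (orange, labelled), with black lines at the median of each length class. The median rises with length to 1.07 at 8 kb and longer, and the ligases lie between 1.77 and 2.86.

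Across the 24 RPF libraries, the genes whose log2 CPM followed the mean of the members most closely, among 11484 genes with a mean count of at least 100, were Heatr1 (Pearson r 0.992), Trrap (0.992), Hectd4 (0.989), Prpf8 (0.989) and Atm (0.989). These correlations are descriptions over libraries that share pools and depth, and these genes have coding sequences of 6.429 kb to 13.254 kb. Against the mean of the other 7 members, 7 genes had r of 0.92 (Huwe1 and Ubr3) to 0.99 (Herc1 and Herc2), and Ubr4 had 0.47. Without the library labelled WT fraction 5/6 replicate 3, over 23 libraries, the same 5 genes led, with r of 0.989 to 0.992, and Ubr4 had 0.45.

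Whether the pellet holds more ligase RPFs than the abundance of the mRNA would give was asked by comparing pellet RPFs with RNA-seq, the occupancy. The levels of these libraries were used to choose the members, so the folds are a description, with SE for the spread between libraries and no p. In WT, 8 of 8 were higher in the pellet by the threshold used for all genes (edgeR adjusted p under 0.05), which 31.1% of all genes tested passed as higher, and nothing is read from that count. Ubr4 was highest with a log2 fold change of 3.57 (SE 0.60). Herc1 had 2.23 (SE 0.16), Birc6 2.20 (SE 0.15), Herc2 2.14 (SE 0.18), Mycbp2 1.99 (SE 0.18), Ubr3 1.97 (SE 0.16), Rnf213 1.63 (SE 0.14) and Huwe1, the member with the most RNA per kb, 1.45 (SE 0.15). The median of the members was 2.06, against -0.10 for all genes.

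In FMR1 KO, 8 of 8 were past that threshold as higher in the pellet than in RNA-seq (31.8% of all genes), with a median of 1.84. Again nothing is read from the count. Ubr4 had 3.25 (SE 0.28), Herc1 2.00 (SE 0.17), Herc2 1.96 (SE 0.16), Birc6 1.87 (SE 0.17), Mycbp2 1.81 (SE 0.18), Rnf213 1.59 (SE 0.12), Ubr3 1.56 (SE 0.12) and Huwe1 1.15 (SE 0.17). Huwe1 was thus the lowest and Ubr4 the highest in both genotypes. The folds were smaller when libraries were scaled by their total alone, which moved the median of all genes to -1.25 in WT and -1.16 in FMR1 KO. In WT they were then 2.42 for Ubr4, 0.47 to 1.07 for Herc1, Herc2, Ubr3, Mycbp2, Birc6 and Rnf213, and 0.29 (SE 0.15) for Huwe1, which no longer passed. In FMR1 KO Ubr4 had 2.10, Herc1 0.93, Herc2 0.89 and Birc6 0.80, whereas Mycbp2 at 0.75, Rnf213 at 0.51, Ubr3 at 0.48 and Huwe1 at 0.08 (SE 0.31) did not pass. Over all genes 1421 were higher and 10933 lower in WT (5027 and 5537 with TMM) and 1287 and 10032 in FMR1 KO (5137 and 5692 with TMM).

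In fraction 5/6 most members lay below RNA-seq in FMR1 KO, whereas in WT the direction changed with the library labelled replicate 3. In FMR1 KO, 6 of 8 were past the threshold as lower in fraction 5/6 than in RNA-seq (33.1% of all genes were lower). The members were chosen on these levels, so nothing is read from this count or those that follow. Herc2 had a log2 fold change of -1.76 (SE 0.13), Mycbp2 -1.57 (SE 0.14), Rnf213 -1.40 (SE 0.18), Herc1 -1.21 (SE 0.10), Birc6 -0.87 (SE 0.11) and Huwe1 -0.82 (SE 0.12). With all groups in one fit, Herc1, Huwe1, Mycbp2 and Birc6 no longer passed, at folds of -1.21, -0.82, -1.57 and -0.87, and Ubr4 passed as higher. Ubr3 had 0.19 (SE 0.13) and Ubr4 2.36 (SE 1.15), and Ubr3 turned to -0.70 and Ubr4 had 1.17 when libraries were scaled by their total alone. In WT with all libraries, all 8 lay above 0, with a median of 0.77, and 1 of 8 was past the threshold as higher, Ubr4 at 3.37 (SE 0.38), where 28.3% of all genes were. Ubr3 had 1.09 (SE 0.42), Birc6 0.90 (SE 0.81), Herc1 0.86 (SE 0.92), Herc2 0.68 (SE 0.98), Mycbp2 0.56 (SE 0.96), Huwe1 0.42 (SE 0.63) and Rnf213 0.37 (SE 0.71). Without the library labelled WT fraction 5/6 replicate 3, 6 of 8 were lower (32.0% of all genes) and Ubr4 was higher at 3.30 (SE 0.39), as were 27.9% of all genes. Mycbp2 then had -1.75 (SE 0.15), Herc2 -1.68 (SE 0.19), Herc1 -1.30 (SE 0.18), Rnf213 -1.27 (SE 0.18), Birc6 -0.86 (SE 0.17), Huwe1 -0.81 (SE 0.21) and Ubr3 0.38 (SE 0.16). Without WT fraction 5/6 replicate 1 instead, 2 genes were past the threshold as higher.

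**Figure D4:**
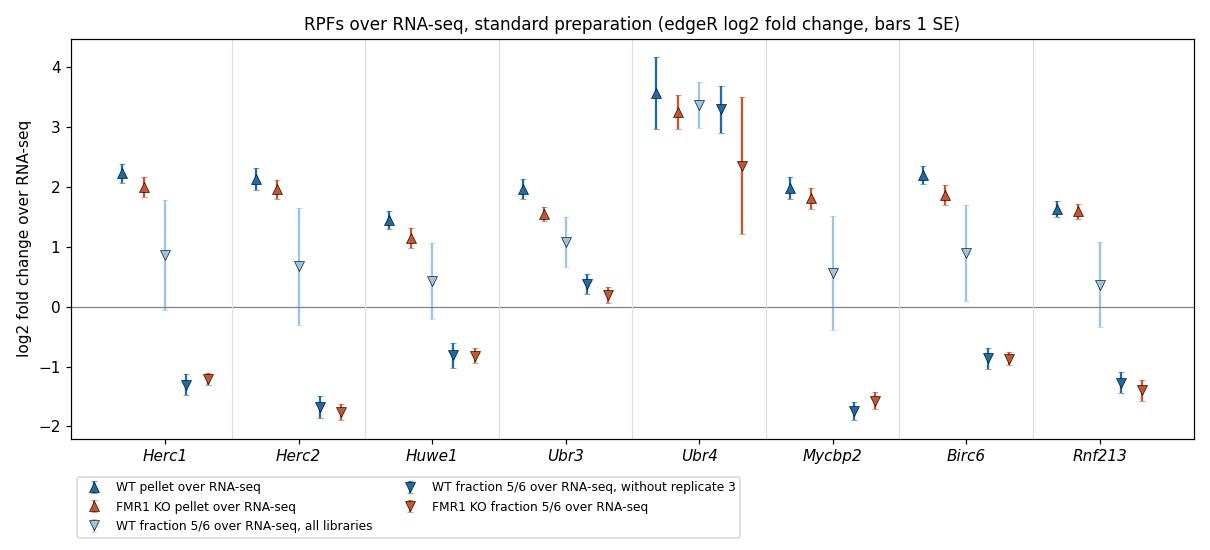
RPFs over RNA-seq of each of the 8 genes in the standard preparation on edgeR's log2 scale, with SE as bars, for the pellet (upward triangles) and fraction 5/6 (downward triangles) of WT (blue) and FMR1 KO (orange), with pale symbols for WT fraction 5/6 with all libraries. All 8 lie above 0 in the pellet, and 6 lie below 0 in FMR1 KO fraction 5/6 and in WT fraction 5/6 without the library labelled replicate 3.

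Other ubiquitin enzymes and partners were past the threshold in both directions, as were all genes. Of 39 measured, 23 were higher and 6 lower in WT pellets than in RNA-seq (31.1% and 34.2% of all genes), with a median of 0.84 against -0.10. Uba1, the main E1 enzyme, had 2.47 (SE 0.18, edgeR adjusted p = 2.32e-05) and the smaller HERC ligase Herc4 2.27 (SE 0.26), whereas Xiap, an inhibitor of apoptosis, had -1.81 (SE 0.13) and the HECT ligase Wwp1 -1.62 (SE 0.12). In FMR1 KO pellets 22 were higher and 8 lower (31.8% and 35.2% of all genes), led by the same genes (Uba1 2.27, Herc4 2.23, Xiap -2.0, Wwp1 -1.85). In FMR1 KO fraction 5/6, 18 were higher and 8 lower (29.7% and 33.1% of all genes), with the HECT ligases Ube3b at 5.06 (SE 0.93) and Herc4 at 2.99 (SE 0.84), and Hectd4 at -1.76 (SE 0.29) and Wwp1 at -1.49 (SE 0.18). In WT fraction 5/6, 16 were higher and 6 lower with all libraries (28.3% and 27.6% of all genes) and 16 and 7 without the library labelled replicate 3 (27.9% and 32.0%). Without it Ube3b had 6.35 (5.92 with all libraries), Wwp2 2.84 (2.51), Hectd4 -2.18 (0.39), Wwp1 -1.78 (-1.79) and Xiap -1.39 (-1.48). Of the 11 VPS13 and BEACH domain genes, beside the same shares of all genes, 9 were higher and 0 lower in WT pellets (8 and 0 in FMR1 KO), and 8 were lower and 1 higher in FMR1 KO fraction 5/6. In WT fraction 5/6, 1 was lower with all libraries and 8 without the library labelled replicate 3. Among other genes with coding sequences at least as long as that of Ubr3, the shortest member, 282 of 520 were higher and 64 lower in WT pellets, with a median of 0.71, and 288 of 518 higher and 59 lower in FMR1 KO, with a median of 0.79. In FMR1 KO fraction 5/6, 85 of 521 long genes were higher and 256 lower, with a median of -0.48. The medians of the members were above those of these lists in the pellet, which describes members chosen on these levels.

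Loss of FMRP was compared with WT in each kind of library, and none of the 8 genes passed edgeR's test. In RNA-seq 0 of 8 were called (0.0736% of all genes), with log2 differences of -0.09 to 0.19 (SE 0.11 to 0.12, adjusted p = 0.999) and 6 of 8 above 0. In standard pellets 0 of 8 were called (0.0152% of all genes), with differences of -0.21 to 0.03 (SE 0.15 to 0.62) and 7 of 8 below 0. In standard fraction 5/6 0 of 8 were called (0% of all genes), but the differences, -2.49 to -0.70 (SE 0.42 to 1.22), rested on the library labelled WT fraction 5/6 replicate 3. Without it, 7 genes lay between -0.23 and 0.12, and Ubr4 had -0.86 (SE 1.44). The change in occupancy of the pellet (the interaction of genotype with pellet over RNA-seq) was -0.37 to 0.00, with 7 of 8 below 0, and 0 of 8 were called (0.0670% of all genes). With low nuclease, the pellets differed by -0.03 to 0.04, with 4 of 8 above 0 (SE 0.10 to 0.19, 0 of 8 called, 0.0197% of all genes), and fraction 5/6 by 0.11 to 0.31 (SE 0.12 to 0.26, 0 of 8 called, 0.0445% of all genes), with all 8 genes above 0. At an unadjusted p under 0.05 the count was 1 in standard fraction 5/6 (Herc2) and 0 in the other 5 comparisons. DESeq2 called 0 of 8 in each, with adjusted p not given for 3 genes in standard fraction 5/6. A p that misses the threshold does not show that the levels were equal, and the smallest SE of any of these differences was 0.10.

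The standard preparation, with more nuclease and MgCl2, was compared with the low nuclease preparation within each fraction and genotype, again as a description with SE and no p. In WT pellets, 6 of 8 were past the threshold used for all genes as higher in the standard preparation, as were 15.0% of all genes, and nothing is read from that count. Ubr4 had 2.37 (SE 0.61), Herc2 1.09 (SE 0.16), Herc1 0.96 (SE 0.13), Mycbp2 0.84 (SE 0.17), Rnf213 0.73 (SE 0.12) and Birc6 0.53 (SE 0.14). Huwe1, at 0.16 (SE 0.14), and Ubr3, at 0.21 (SE 0.13), did not pass. Scaled by library total alone, Herc1 (0.43), Herc2 (0.56) and Ubr4 (1.85) passed as higher, Mycbp2 (0.30), Rnf213 (0.20) and Birc6 (0.0011) did not pass, Ubr3 had -0.32, and Huwe1 turned to -0.37 and passed as lower. With all groups in one fit 1 gene passed, and without WT low nuclease pellet replicate 1 it was 3.

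In FMR1 KO pellets, 3 of 8 were past the threshold as higher in the standard preparation (7.40% of all genes), Ubr4 at 2.30 (SE 0.32), Herc2 at 0.95 (SE 0.21) and Rnf213 at 0.84 (SE 0.16). Herc1 had 0.89, Mycbp2 0.75, Birc6 0.37, Huwe1 0.14 and Ubr3 0.11, and the last 3 were -0.10, -0.33 and -0.38 when libraries were scaled by their total alone. The count was 0 without FMR1 KO pellet standard replicate 1 or low nuclease replicate 2 or 3, 1 without standard replicate 3, and 5 without low nuclease replicate 1. In WT fraction 5/6, 1 of 8 was past it as higher, Ubr4 at 4.77 (SE 0.41), where 2.94% of all genes were higher. The other 7 had 1.07 to 2.48 with all libraries and -0.20 to 0.45 without the library labelled fraction 5/6 replicate 3, where Ubr4 had 4.75 (SE 0.42) and was again the 1 member past the threshold (5.24% of all genes as higher). In FMR1 KO fraction 5/6, 0 of 8 were past the threshold by edgeR (20.9% of all genes in either direction), with differences of -0.51 to 3.79. Ubr4 had the 3.79 (SE 1.31), and was past the threshold by DESeq2 and without FMR1 KO fraction 5/6 standard replicate 3. Nothing is read from these counts, since the members were chosen on these levels. Ubr4 thus had the largest difference between preparations of the 8 genes in all 4 comparisons.

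Of the pathway list, 10 of 39 were higher and 4 lower in WT standard pellets than in low nuclease ones (15.0% of all genes were higher and 3492 of 14538 lower), among them Herc6 at 0.94 and Herc4 at 0.84, and Arel1, a HECT ligase, at -1.13 and Fbxo45, the partner of Mycbp2, at -0.55. In FMR1 KO pellets 2 were higher (Wwp2 0.80, Skp1a 0.63) and 3 lower, with Arel1 at -0.86 and Ube3c at -0.55 (7.40% and 9.53% of all genes). Arel1 was also lower in FMR1 KO fraction 5/6, at -0.70, where 5 of the list were higher and 1 lower (10.0% and 10.8% of all genes), among them Ube3b at 6.14 and Uba6, a second E1 enzyme, at 0.86. In WT fraction 5/6 Arel1 had -1.01 (SE 0.15, edgeR adjusted p = 0.0208) and was the 1 gene of the list called (2.94% of all genes were higher and 6.76% lower), and it had -1.0 (SE 0.16, 0.0288) without the library labelled replicate 3, where Ube3b was called as well, at 7.29 (SE 1.36, 0.0349), and 5.24% of all genes were higher and 8.24% lower. Of the 11 VPS13 and BEACH domain genes 4 were higher in WT pellets, 0 were lower there, and 0 passed edgeR's threshold in FMR1 KO pellets and in fraction 5/6 of either genotype.

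Peaks were listed on 7 of the 8 transcripts in the pellet. The 6 pellet libraries together listed 333 peaks on Ubr4, 317 on Huwe1, 260 on Herc2, 237 on Mycbp2, 176 on Ubr3, 146 on Herc1, 23 on Birc6 and 0 on Rnf213. Those of Huwe1 and Birc6 lay on another Ensembl transcript (ENSMUST00000026292 and ENSMUST00000180037) than the one named in the count table. WT pellets had 356, 193 and 239 peaks on the members, which were 0.977%, 0.785% and 1.10% of all peaks of those libraries, and FMR1 KO pellets had 358, 120 and 226 (1.12%, 0.643% and 0.887%). WT fraction 5/6 had 1 and 0 peaks in replicates 1 and 2 and 174 in the library labelled replicate 3, and FMR1 KO fraction 5/6 had 0, 4 and 0. The number of peaks differed between libraries of 1 group more than between genotypes: Herc1 had 0, 37 and 19 in WT pellets and 1, 70 and 19 in FMR1 KO pellets. WT fraction 5/6 replicate 1 and FMR1 KO fraction 5/6 replicate 1 listed 0 peaks on Ubr4 beside their 38950 and 21245 counts. The libraries differ in depth, whose part in these counts was not tested.

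**Figure D5:**
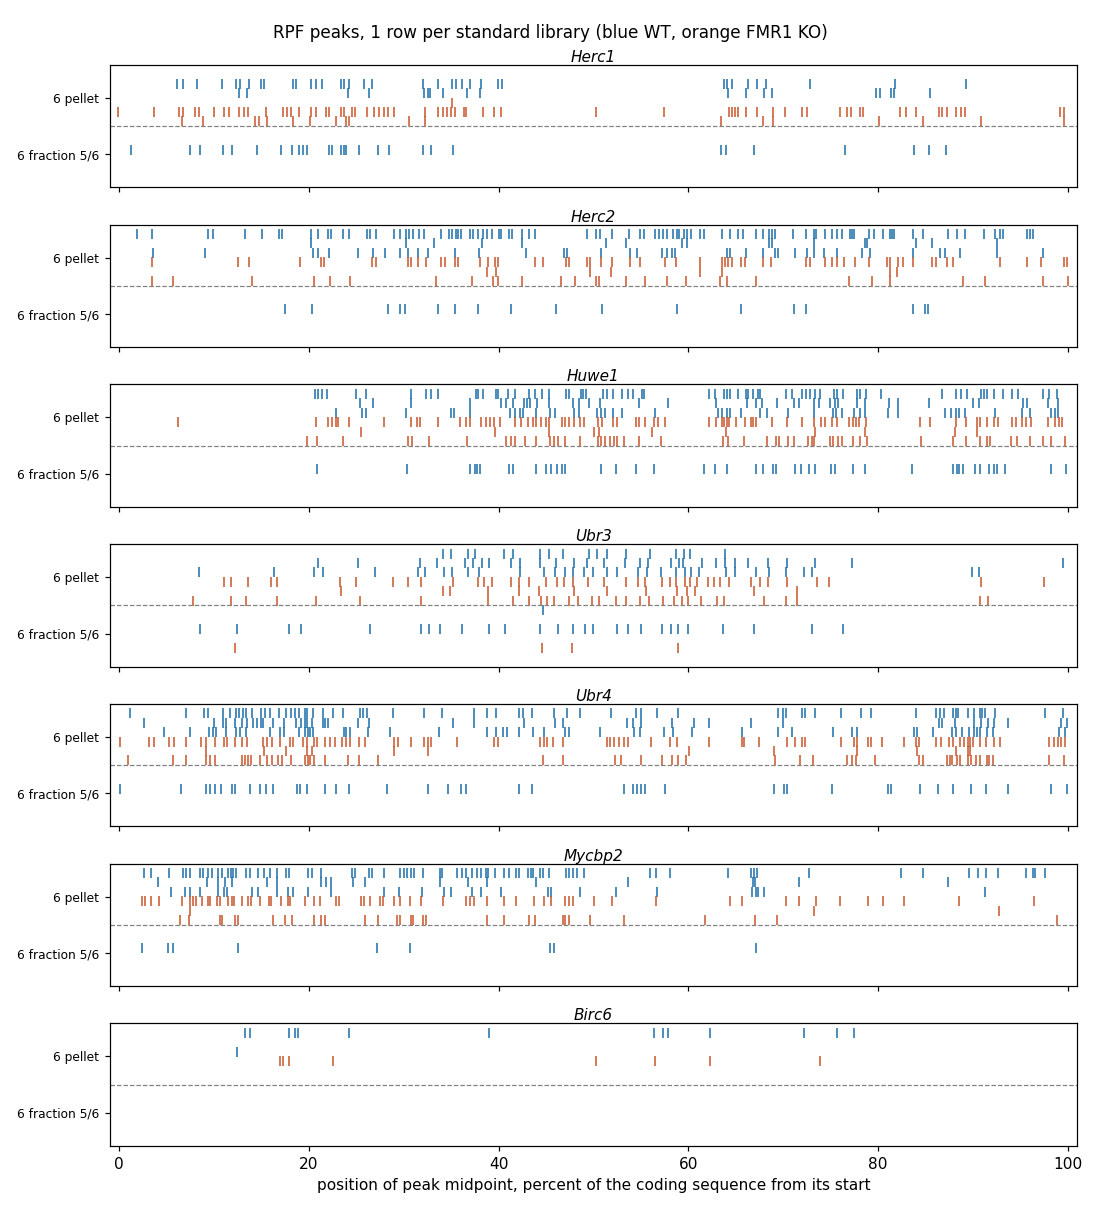
Position of each peak middle, in percent of the coding sequence from its start, on the 7 genes with peaks (panels), with 1 row for each of the 6 pellet and 6 fraction 5/6 standard libraries, blue for WT and orange for FMR1 KO. Nearly all fraction 5/6 peaks are in the row of the library labelled WT replicate 3, with 174, and the peaks of Ubr3 gather in the middle of its coding sequence.

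Of the 1492 peaks of the pellets, 1491 had their middle in coding sequence and 1 in the 5′UTR. Along the coding sequence, cut in 3 equal parts from the start codon, Ubr3 had 28, 122 and 26 peaks, so that most lay in the middle. Huwe1 had 34, 144 and 139, few of them near the start. Mycbp2 had 127, 74 and 36, most of them in the first part, and Herc1 had 71, 36 and 39, of which 71 of 146 lay in the first part. Herc2 had 57, 111 and 92, Ubr4 144, 74 and 115 and Birc6 11, 8 and 4.

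Most peaks did not recur. Counting peaks within 6 nt as 1 position, 955 positions on the members (80.6%) were found in 1 pellet library, 169 (14.3%) in 2, 46 (3.88%) in 3, 14 (1.18%) in 4, 1 (0.0844%) in 5 and 0 in 6. Over all transcripts the shares were 70.4%, 17.6%, 7.25%, 3.00%, 1.22% and 0.497%. Summed over the members, the share of positions in several libraries was smaller, which was not tested. Ubr3 alone had a larger share than all transcripts. Of its 113 positions, 38 were in at least 2 libraries, 18 in at least 3 and 7 in at least 4. Of the 15 positions in at least 4 libraries, Ubr3 had 7, Huwe1 3, Ubr4 3, Herc2 1 and Mycbp2 1. The Mycbp2 position at codon 354 was the one in 5 libraries, missing from WT pellet replicate 2. The peak lists have no column names, and the value beside each peak was read as its height, which ranged from 0 (for 2 peaks) to 50 over the 1671 peaks of the members. At the Ubr3 position of codon 1112 it was 14 to 43, at Mycbp2 codon 354 it was 3 to 22 and at Herc2 codon 3929 it was 1 to 18. Of the 15 positions, those at Ubr3 codons 1112, 840 and 907 were also listed in the library labelled WT fraction 5/6 replicate 3, and codon 907 in FMR1 KO fraction 5/6 replicate 2 as well.

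Aspartate and glutamate codons made up 13.7% of the codons (1911 of 13908) within 15 nt of the middle of pellet peaks, and 12% (3681 of 30764) of the whole coding sequences of the transcripts with peaks. Herc1 went the other way, with 11.5% in its peak windows and 11.8% in its coding sequence, and the other 6 transcripts had the higher share in the windows, from 12.6% against 11.6% in Mycbp2 to 17.0% against 10.9% in Birc6, which had 23 peaks. Around positions in at least 2 libraries the share was 14.6%, in at least 3 it was 13.4%, and in at least 4 it was 17.3% (24 of 139 codons). The last share is set by few positions, among them those printed above: Herc2 codon 3929, Huwe1 codon 1982 and Ubr3 codon 1112 each have 3 such codons in 10, and Huwe1 codon 3207 has 0. Peaks of 1 transcript are not independent of each other, and these shares are given without a test.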

How the data were processed

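RPF libraries and RNA-seq libraries of 36 samples were analysed from the deposited files. The authors trimmed reads with cutadapt 2.10, used Bowtie2 2.3.5 to discard reads of rRNA and further non-coding RNA, aligned the rest to GRCm38 with STAR 2.7.8a, removed duplicates (Picard, SAMtools 1.19.2) and made the count values per gene with featureCounts 2.2.0 (versions per the submitters' processing notes), and the deposited counts are whole numbers without normalization. Peak heights, a coverage signal, were called by the authors per sample on Ensembl transcripts, by the methods where the highest point exceeded 4 times the average of the transcript. That minimum was not checked for the deposited lists, which have no column names or coverage, and 2 values on the members are 0.

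Genes not protein-coding in GENCODE M21 and the Cdk8 row were left out. Counts were filtered with filterByExpr, normalized by TMM and compared with edgeR 4.0.16 (quasi-likelihood, Benjamini-Hochberg over all genes tested, threshold 0.05) in R 4.3.3, with only the compared groups in each fit. SE was the log2 fold change divided by the root of F. The members' differences over RNA-seq and between preparations, planned as tests, are given without p. DESeq2 1.42.0, other scalings, other filters, 1 fit over all groups and leaving out each library were alternatives, and the likeness of profiles and the pathway list without 1 library were added after seeing the data. The procedure was tested on simulated data. CPM used counts without Cdk8, and log2 CPM for likeness added 1. Tables, peaks and figures used Python 3.11.15, pandas 2.3.3, numpy 2.4.6 and matplotlib 3.10.9. Named genes were all 8 members, and of the pathway list the 2 largest rises and 2 largest falls past the threshold in a comparison, with the 5 genes most like the members. The members and lists were chosen with earlier results of these data known. Coding sequence came from GENCODE M21 transcripts. The low nuclease RNA-seq entered no comparison.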

Additional observations from a re-analysis of the deposited data

How the results depend on the processing

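Counts and directions changed with the library labelled WT fraction 5/6 replicate 3, with the scaling and with the groups in the fit. WT fraction 5/6 over RNA-seq had 1 gene past the threshold with all libraries and 1 to 7 when 1 library was left out, 7 of them (1 higher, 6 lower) without that library, where Herc1 turned to -1.30, Herc2 to -1.68, Huwe1 to -0.81, Mycbp2 to -1.75, Birc6 to -0.86 and Rnf213 to -1.27. When 1 WT fraction 5/6 library was left out, these genes ranged up to 1.20, 1.03, 0.68, 0.90, 1.20 and 0.68 in the same order, each without replicate 1. DESeq2 gave 2 there and 1 fit over all groups gave 2. The median WT standard pellet over fraction 5/6 ranged from 0.93 to 3.04 when 1 library was left out, and Ubr4 ranged from -0.66 without WT pellet replicate 1 to 0.69 without WT pellet replicate 3, and in FMR1 KO it was 3.84 without FMR1 KO fraction 5/6 replicate 1. Scaling by library total alone left 4 genes in FMR1 KO pellet over RNA-seq and 1 in FMR1 KO pellet standard over low nuclease, turned Ubr3 to -0.70 in FMR1 KO fraction 5/6 over RNA-seq and Huwe1 to -0.37 in WT pellet standard over low nuclease, and moved the median of all genes to -1.25 to -1.02 over RNA-seq and to -0.71 to -0.48 between preparations. With all groups in 1 fit, 3 genes passed in FMR1 KO fraction 5/6 over RNA-seq (1 higher, 2 lower, against 6 lower), 1 in WT pellet, 1 in FMR1 KO pellet, 8 in WT fraction 5/6 and 1 in FMR1 KO fraction 5/6 standard over low nuclease. DESeq2 gave 5 in FMR1 KO pellet and 1 in FMR1 KO fraction 5/6 standard over low nuclease. Leaving out 1 library gave 6 to 7 in FMR1 KO fraction 5/6 over RNA-seq, 3 to 6 in WT pellet, 0 to 5 in FMR1 KO pellet and 0 to 1 in FMR1 KO fraction 5/6 standard over low nuclease, and 0 to 1 positions with a peak in every pellet library. The cause was not tested. Same-numbered libraries were not taken as pairs, since in none of 17 pairs of groups did all 3 numbers correlate above 0.1, and a replicate block gave 8, 8, 1 and 6 genes over RNA-seq, 0 between genotypes, 4, 2, 1 and 0 between preparations, and enrichment medians of 2.06, 3.01, 2.65 and 2.41. Over all genes, DESeq2 called more between genotypes than edgeR (46 higher and 20 lower against 0 and 2 in standard pellets, 77 and 119 against 3 and 4 in low nuclease fraction 5/6), with 0 members in each. Of the counts and medians over the members, 247 alternative values stayed within 1.5 times the reported count or within the spread between libraries, 10 were weaker, 9 stronger, 1 moved and 1 reversed. Of single-gene values 1984 stayed on their side of the threshold or, without a test, within 1 SD, 44 were weaker, 19 stronger, 8 moved and 9 reversed. The sign of a value that passed in neither setting was not judged: scaled by library total, Ubr3 had -0.32 in WT and -0.38 in FMR1 KO pellet standard over low nuclease, and members other than Ubr4 had -0.82 to -0.13 in WT fraction 5/6 over RNA-seq.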
